A study of Mus musculus with 15 samples.

Results

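The IL-12 family subunits and Stat4 were followed across sorted mouse XCR1+ dendritic cells (DCs) of thymus and spleen. The rule named 6 genes (Il12a, Il12b, Il23a, Il27, Ebi3 and Stat4) and took every probe set whose platform annotation carries exactly 1 of these symbols. In this annotation 5 of the 6 had a probe set, out of 18194 genes with one in all. Il12b had 2 probe sets, Il12a, Il23a, Ebi3 and Stat4 had 1 each, and no value is given here for Il27. Where a gene had several probe sets, the one whose mean over the 15 arrays was highest stood for it. A gene was tested when 3 or more arrays exceeded 4.39 (log2), a filter value set at the 40th percentile of the table. That left 3 of the 5 measured members, Il12b, Ebi3 and Stat4, among 13629 tested genes.

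The 15 Affymetrix arrays form 5 groups of 3. DCs from the thymus of untreated mice were sorted as immature CD117+ CCR7- and as homeostatically matured CD117- CCR7+ cells. Untreated spleen gave the same 2 fractions. The fifth group holds CCR7+ cells from spleens taken 18 h after an intraperitoneal injection of 10 µg polyI:C, a synthetic double-stranded RNA that is sensed by TLR3 and MDA5. All groups were gated CD11c+ CD317- CD172a-, and XCR1, which is in the sample names, is not among the gates given. Every spleen title, untreated or polyI:C, carries the label LT_SetA, and no thymus title does. What it marks is not stated in the titles. Anything it stands for cannot be told apart from tissue in comparisons of thymus with spleen. The treated mice contributed no CCR7- fraction, so a difference between polyI:C-matured and immature cells holds both maturation and treatment. Strain, age and sex of the mice, and whether replicates came from separate mice, were not among the details at hand, so p-values here reflect only how far these samples spread, which may be technical.

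The cytokines of this family are heterodimers. IL-12 joins p35 (Il12a) to p40 (Il12b), and IL-23 joins p19 (Il23a) to the same p40. IL-27 joins p28 (Il27) to EBI3, and IL-35 has been described as p35 with EBI3. In each case a helical chain pairs with a chain that resembles a soluble cytokine receptor, and p35 and p19 depend on their partners for secretion. DCs are a main source of IL-12, which drives T cells and NK cells towards interferon gamma production. STAT4 is the transcription factor that the IL-12 receptor activates in those cells, and it is also found in activated DCs.

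RefSeq promoter windows were at hand for 4 members (Il12a, Il12b, Ebi3 and Stat4). Those of the 3 tested members are shown because these genes moved between groups in different ways, and because some factors tied to the motifs searched are described with their own values further on. Each line holds the 250 bases before a gene start on the plus strand (GRCm38.p6), and capitals mark the matches.
Il12b, chr11:44399813-44400062: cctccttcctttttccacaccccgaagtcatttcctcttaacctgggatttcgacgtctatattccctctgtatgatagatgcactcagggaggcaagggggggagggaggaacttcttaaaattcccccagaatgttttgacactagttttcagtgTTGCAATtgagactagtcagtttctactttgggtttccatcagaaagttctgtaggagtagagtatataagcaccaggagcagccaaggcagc
Ebi3, chr17:55952373-55952622: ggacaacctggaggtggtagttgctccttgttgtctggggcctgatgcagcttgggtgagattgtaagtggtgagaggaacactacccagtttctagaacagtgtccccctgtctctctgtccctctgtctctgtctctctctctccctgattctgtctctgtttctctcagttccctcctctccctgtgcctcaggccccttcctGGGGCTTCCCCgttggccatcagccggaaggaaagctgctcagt
Stat4, second listed start, chr1:52007990-52008239: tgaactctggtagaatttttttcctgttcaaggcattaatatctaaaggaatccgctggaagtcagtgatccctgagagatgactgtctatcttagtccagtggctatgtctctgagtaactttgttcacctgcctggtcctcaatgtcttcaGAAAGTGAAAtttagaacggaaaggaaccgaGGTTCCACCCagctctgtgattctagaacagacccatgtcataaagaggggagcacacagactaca

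The motifs searched on both strands were GGG and CC with 5 bases between them for NF-kB, 2 copies of GAAA with 2 bases between them for the interferon-stimulated response element, TTCNNNGAA for STAT dimers and TTGCAAT for C/EBP. The Il12b window held TTGCAAT at positions -93 to -87 from the gene start, letters that 1.96% of the 32851 promoter windows of the same length contain. The Ebi3 window held overlapping NF-kB matches at -44 to -34, a motif found in 45.8% of windows. Stat4 has 2 listed starts. The window of the first held no match, and that of the second, which lies inside the annotated gene (chr1:51987106-52107189), held GAAAGTGAAA at -97 to -88 (2.98% of windows hold this interferon motif) and an NF-kB match at -66 to -57. Il12a (chr3:68690644-68698550) has 2 listed starts as well, with a C/EBP match at -156 to -150 in the first window and overlapping NF-kB matches at -113 to -103 in the second. TTCNNNGAA, present in 7.02% of windows, was in none of these 6. A match says only that the letters are there.

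The labels were checked against transcripts. Of 10 listed XCR1+ DC markers 9 had a probe set, and all 9 exceeded the filter value in every array of 4 groups, while 8 did in every array of thymus CCR7+ cells, where Tlr3 ran from 4.20 to 4.78. Xcr1 itself averaged 11.40 and 11.58 (log2) in CCR7- cells of thymus and spleen, 5.25 in thymus CCR7+ cells, 8.03 in untreated and 7.54 in polyI:C-treated spleen CCR7+ cells. Ccr7 averaged 8.84 and 8.42 in the CCR7- groups and between 12.87 and 13.03 in the CCR7+ groups. Arrays correlated with the others of their group with a mean r of 0.964 to 0.990 over tested genes. The lowest of these values belonged to spleen CCR7+ replicate 1, followed by replicates 2 (0.971) and 3 (0.969) of the same group. Arrays of the other groups had 0.980 or more, so the whole spleen CCR7+ group was less uniform. Xcr1 had a standard deviation of 1.617 there, against at most 0.499 in the other groups. The tested members' changes in the 4 main comparisons that use replicate 1 are also given without it. Leaving it out does not address the spread of the group. In sorted bulk RNA, fewer cells of a type and less RNA per cell cannot be told apart.

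**Figure D1:**
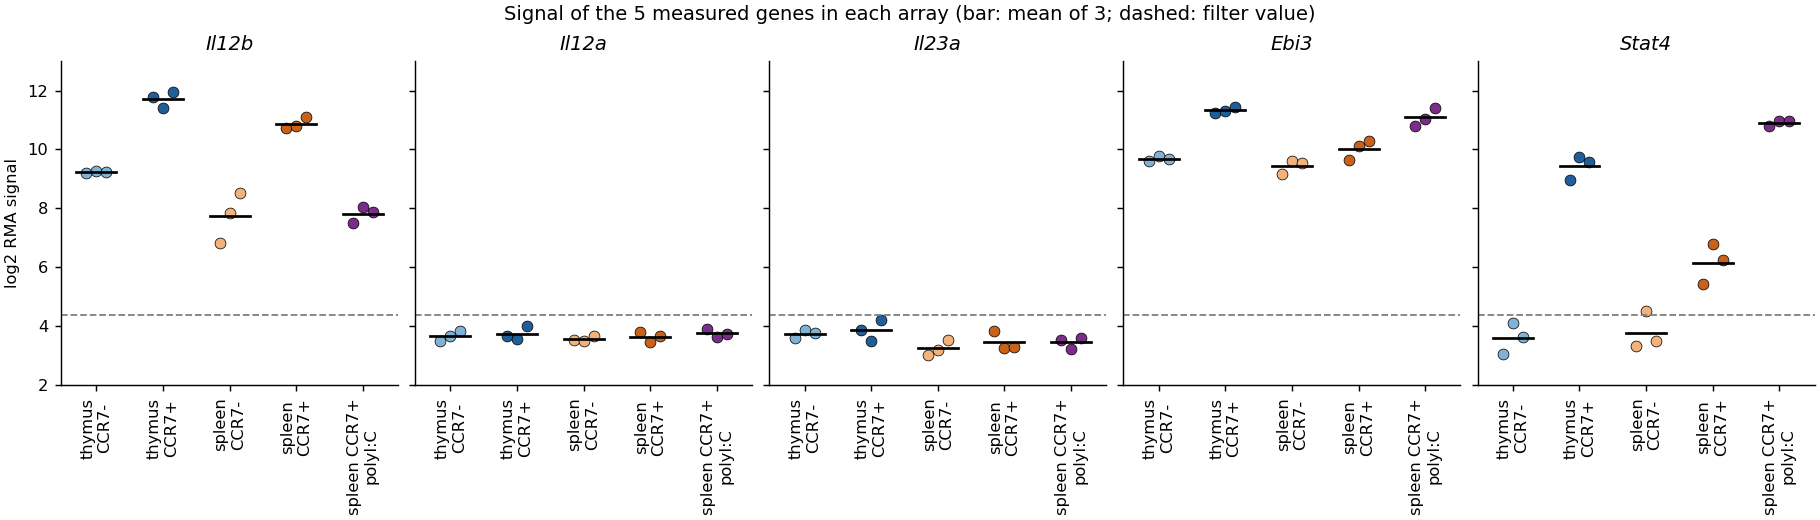
Signal of the 5 measured genes (log2 RMA, vertical axis) in each array of the 5 groups (horizontal axis); points are arrays, bars are means of 3 and the dashed line is the filter value of 4.39. Il12b is high in both untreated CCR7+ groups and not after polyI:C, Ebi3 and Stat4 are high in thymus CCR7+ and polyI:C-matured cells, and Il12a and Il23a lie below the line in every array; levels of different genes are not comparable.

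Il12b, which encodes the p40 chain shared by IL-12 and IL-23 (chr11:44400063-44414677), was high in homeostatically matured cells of both tissues but not in polyI:C-matured cells. In thymus the 3 CCR7- arrays read 9.22, 9.26 and 9.24 (log2) and the 3 CCR7+ arrays 11.77, 11.40 and 11.95. In untreated spleen the CCR7- arrays read 6.83, 7.85 and 8.53 and the CCR7+ arrays 10.73, 10.80 and 11.09. After polyI:C the CCR7+ arrays read 7.49, 8.04 and 7.89. In both untreated tissues every CCR7+ array lay above every CCR7- array, whereas the polyI:C arrays lay within the range of immature spleen cells.

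The rise of Il12b was 5.53-fold in thymus, with a log2 change of 2.47 (standard error 0.31, limma adjusted p = 2.32e-05). In untreated spleen it was 8.80-fold, with a log2 change of 3.14 (standard error 0.31, limma adjusted p = 4.48e-06), and 3.21 without spleen CCR7+ replicate 1. The thymus change minus the spleen change was -0.67 with a 95% interval of -1.62 to 0.28 and did not pass the test (limma adjusted p = 0.52); without spleen CCR7+ replicate 1 it was -0.74. Against immature spleen cells the polyI:C-matured cells differed by 0.07 (95% interval -0.60 to 0.74, limma adjusted p = 0.872). Against homeostatically matured spleen cells they were 8.37-fold lower, with a log2 change of -3.07 (standard error 0.31, limma adjusted p = 1.42e-05), the 15th largest fall of the 13629 tested genes, and -3.14 without that array. Thymus CCR7+ cells exceeded polyI:C-matured cells by 3.90 (limma adjusted p = 1.21e-06).

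Il12b also differed between the tissues before maturation. Thymus CCR7- cells were 2.83-fold above spleen CCR7- cells, a log2 difference with a 95% interval of 0.83 to 2.17 (limma adjusted p = 0.00698), with a standard deviation of 0.022 among the thymus arrays and 0.857 among the spleen arrays. In the CCR7+ fractions the thymus lay 0.83 higher (95% interval 0.16 to 1.51) and did not pass the test (limma adjusted p = 0.105), nor without spleen CCR7+ replicate 1 (0.76, limma adjusted p = 0.227). With the second Il12b probe set, which has the larger variance, that difference was 1.65 (limma adjusted p = 0.0274), and with the mean of both it was 1.24 (limma adjusted p = 0.0307). In untreated spleen CCR7+ cells the second probe set read 7.68, 9.33 and 9.44, with replicate 1 well below the others. Without that array both calls ended, at 1.08 (limma adjusted p = 0.0906) with the second probe set and 0.92 (limma adjusted p = 0.118) with the mean of both, settings added after the data were seen. The second probe set gave changes of 2.91 in thymus, 2.80 in untreated spleen, 0.02 for polyI:C-matured against immature cells and -2.78 for polyI:C-matured against homeostatically matured cells. Its changes in untreated spleen and from homeostatically matured to polyI:C-matured cells were 3.37 and -3.35 without spleen CCR7+ replicate 1. Ordered by level, thymus CCR7+ cells came first, then spleen CCR7+, thymus CCR7-, polyI:C-matured and spleen CCR7- cells. The first and second of this order, and the last pair, were not separated by the test. Spleen CCR7+ exceeded thymus CCR7- cells by 1.64 (limma adjusted p = 0.000784, 39.9% of genes called in that comparison), and polyI:C-matured minus thymus CCR7- cells gave -1.43 (limma adjusted p = 0.00155, 47.7% called).

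Il12a and Il23a, the helical partners of Il12b, stayed dim in all groups. Il12a (p35) ranged from 3.46 to 4.02 over the 15 arrays and Il23a (p19, chr10:128296140-128298084) from 3.02 to 4.21, both below the filter value in every array. RMA gives no detection calls, so signal at this level cannot be told from background, and low transcript cannot be told from a probe set that responds poorly. In a fit without the filter Il12a changed by 0.09 (95% interval -0.22 to 0.40) in thymus, by 0.08 (-0.23 to 0.39) in untreated spleen and by 0.19 (-0.11 to 0.50) in polyI:C-matured against immature cells. Il23a changed by 0.11 (-0.32 to 0.55), 0.21 (-0.23 to 0.64) and 0.20 (-0.24 to 0.64) in the same order. No call resulted for either gene in any of the 8 comparisons, the lowest adjusted p from limma being 0.196. The 3 thymus CCR7- arrays of Il23a (3.61, 3.85 and 3.77) all lay above the 3 of spleen CCR7- (3.02, 3.20 and 3.54), a difference of 0.49 (limma adjusted p = 0.247 without the filter).

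The measured changes of Il12b were set beside those of its helical partners, whose own changes are bounded by background. The change of Il12a minus that of Il12b was -2.38 in thymus and -3.06 in untreated spleen, and it was 3.18 for polyI:C-matured against homeostatically matured cells. Il23a minus Il12b gave -2.35, -2.93 and 3.06 in the same comparisons. The 2 groups did not overlap in any of these 6 within-array differences, and each reached the two-sided exact permutation p = 0.1, the smallest possible with 3 against 3 arrays. Il12a and Il23a changed by -0.002 to 0.205 there, so these differences largely restate the change of Il12b. They are no separate evidence on pairing. For polyI:C-matured against immature cells the differences were 0.12 (exact permutation p = 0.9) and 0.13 (exact permutation p = 0.8). Over all 12 tests of partners, 9 reached 0.1, which became 0.133 after Benjamini-Hochberg adjustment (exact permutation tests). The tests share genes and arrays, so this count is not one of independent results.

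Ebi3, the receptor-like partner of p28 in IL-27 (chr17:55952623-55957022), was bright in all groups and highest in thymus CCR7+ and polyI:C-matured cells. In thymus the CCR7- arrays read 9.60, 9.79 and 9.68 (log2) and the CCR7+ arrays 11.22, 11.31 and 11.44. In untreated spleen the CCR7- arrays read 9.16, 9.60 and 9.52 and the CCR7+ arrays 9.64, 10.13 and 10.28. After polyI:C they read 10.80, 11.05 and 11.41. Each CCR7+ group lay wholly above the CCR7- group of its tissue, but in untreated spleen the lowest mature array was only just above the highest immature one.

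Ebi3 rose by 1.64 in thymus (3.11-fold, standard error 0.19, limma adjusted p = 1.12e-05) and by 1.66 in polyI:C-matured against immature spleen cells (3.17-fold, standard error 0.19, limma adjusted p = 6.44e-06). In untreated spleen the rise was 0.59 (1.51-fold, standard error 0.19, limma adjusted p = 0.026). The rise no longer passed when any of 3 arrays was left out: spleen CCR7- replicate 1 (0.46, limma adjusted p = 0.122), spleen CCR7+ replicate 2 (0.53, limma adjusted p = 0.072) or spleen CCR7+ replicate 3 (0.46, limma adjusted p = 0.107), and in a limma fit of these 2 groups only (adjusted p = 0.089). It held without spleen CCR7+ replicate 1, with a change of 0.78. PolyI:C-matured cells exceeded homeostatically matured spleen cells by 1.07 (limma adjusted p = 0.00138), and thymus CCR7+ cells exceeded them by 1.31 (limma adjusted p = 0.000453). Without spleen CCR7+ replicate 1 these were 0.88 and 1.12, both still called. Thymus CCR7+ and polyI:C-matured cells differed by 0.24 (95% interval -0.18 to 0.65, limma adjusted p = 0.397).

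The Ebi3 change in thymus exceeded that in untreated spleen by 1.04 (95% interval 0.46 to 1.63), just short of the test (limma adjusted p = 0.0544), and by 0.85 without spleen CCR7+ replicate 1 (limma adjusted p = 0.0894). Same-numbered arrays of thymus and spleen deviated together within each untreated fraction. With these pairs as a replicate block, a setting added after the data were seen, the same difference had a limma adjusted p = 0.011. The pairs were chosen from these same arrays, so this value is not counted as a call. Ordered by level, thymus CCR7+ came before polyI:C-matured, spleen CCR7+, thymus CCR7- and spleen CCR7- cells, and only the step from polyI:C-matured to spleen CCR7+ cells passed the test. Spleen CCR7+ and thymus CCR7- cells differed by 0.33 (limma adjusted p = 0.206) and both CCR7- groups by 0.27 (limma adjusted p = 0.589). Il12a is also the partner of Ebi3 in IL-35. The change of Il12a minus that of Ebi3 was -1.55 in thymus, -1.47 for polyI:C-matured against immature cells and -0.96 against homeostatically matured cells (exact permutation p = 0.1 in each), and -0.51 in untreated spleen (exact permutation p = 0.3). With Il12a near background, these differences largely restate the change of Ebi3. Il27, its partner in IL-27, was not analysed here.

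Stat4 (chr1:51987106-52107189) had the widest range of the measured members, from near background in immature cells to bright in polyI:C-matured cells. In thymus the CCR7- arrays read 3.07, 4.09 and 3.63 (log2) and the CCR7+ arrays 8.95, 9.75 and 9.58. In untreated spleen the CCR7- arrays read 3.32, 4.51 and 3.49 and the CCR7+ arrays 5.44, 6.79 and 6.24. After polyI:C they read 10.80, 10.97 and 10.97. The 3 CCR7+ groups did not overlap with each other or with any CCR7- array. In the 6 immature arrays Stat4 exceeded the filter value only in spleen CCR7- replicate 2, so it was tested through its CCR7+ arrays and its folds against CCR7- cells are compressed.

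**Figure D2:**
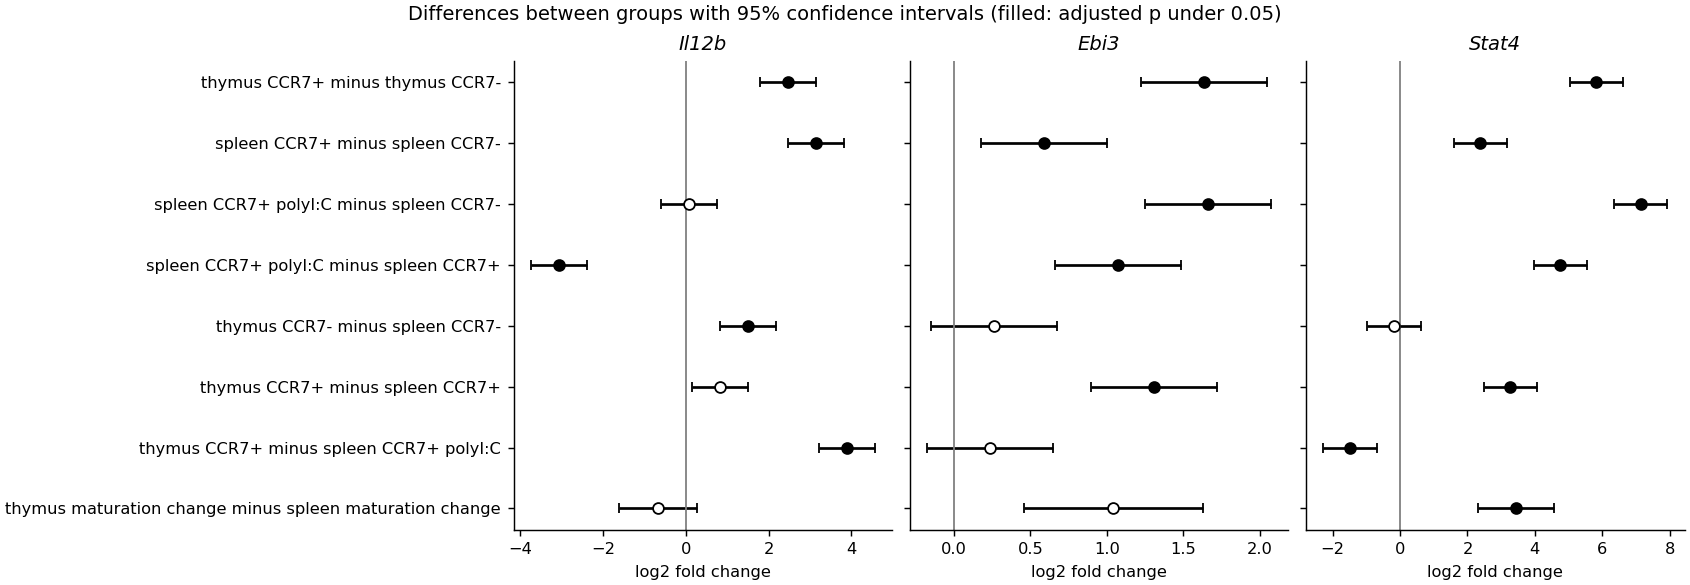
Log2 fold changes of Il12b, Ebi3 and Stat4 (horizontal axes, with different ranges) in the 8 comparisons (vertical axis); points are limma estimates, bars are 95% confidence intervals and filled points have an adjusted p under 0.05. Il12b fell by 3.07 from homeostatically matured to polyI:C-matured spleen cells, where Ebi3 and Stat4 rose by 1.07 and 4.76.

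Stat4 rose by 5.83 in thymus (standard error 0.37, limma adjusted p = 3.18e-08) and by 2.38 in untreated spleen (standard error 0.37, limma adjusted p = 0.000198). In polyI:C-matured against immature spleen cells it rose by 7.14 (standard error 0.37, limma adjusted p = 2.79e-09), and against homeostatically matured cells by 4.76, or 27.1-fold (limma adjusted p = 7.84e-07). Thymus CCR7+ cells lay 3.27 (9.63-fold) above spleen CCR7+ cells (limma adjusted p = 5.03e-05) and differed by -1.49 (2.81-fold lower) from polyI:C-matured cells (limma adjusted p = 0.0091). The thymus change exceeded the spleen change by 3.44 (95% interval 2.33 to 4.56, limma adjusted p = 0.00186), a value that, like both changes in it, starts from CCR7- cells at background. Without spleen CCR7+ replicate 1 the Stat4 values were 2.74 in untreated spleen, 4.40 for polyI:C-matured against homeostatically matured cells, 2.91 between the untreated CCR7+ groups and 3.09 for the difference of changes, all still called. Immature cells of the tissues differed by -0.18 (95% interval -0.97 to 0.62, limma adjusted p = 0.921), with no order to be read at this level. From polyI:C-matured through thymus CCR7+ and spleen CCR7+ to the CCR7- cells, each step passed the test.

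STAT4 is abundant in T cells and NK cells, so their transcripts were read beside it. Of 9 listed T cell markers 8 had a probe set, and their summed linear signal ran from 402 to 864 in thymus CCR7- arrays, from 1346 to 3486 in thymus CCR7+ arrays, from 212 to 284 and 333 to 465 in the same fractions of spleen, and from 497 to 701 after polyI:C. The 6 thymocyte markers summed to between 184 and 388, 677 and 1659, 115 and 119, 151 and 227, and 360 and 528 in the same order of groups. After polyI:C Cd8b1, a CD8 chain in both lists, averaged 8.37, while Rag1, Rag2, Dntt and Themis there averaged 2.71, 3.50, 4.18 and 5.09, against 2.63, 3.55, 4.16 and 4.84 in spleen CCR7- cells. Both sums were higher in thymus CCR7+ than in CCR7- cells, as Stat4 was, and Rag1 (a recombinase subunit of developing lymphocytes) averaged 9.12 against 6.27 there. Cd3e, a T cell receptor chain, averaged between 4.85 and 5.26 in all groups. The other T cell markers with a probe set averaged higher in thymus CCR7+ than in CCR7- cells. Cd3d averaged 7.08 against 5.66, Cd3g 8.85 against 6.32, Cd2 6.30 against 4.63 and Cd8b1 7.23 against 5.46. Cd5 averaged 6.05 against 5.19, Cd28 5.95 against 4.09 and Bcl11b 10.02 against 7.88. In polyI:C-matured cells, where Stat4 was highest, the T cell sums exceeded those of both untreated spleen fractions. Cd8b1, which is part of these sums, also had its highest group mean there. From untreated spleen CCR7+ to polyI:C-matured cells Cd8b1 went from 6.31 to 8.37, Cd3e from 4.87 to 5.09 and Cd28 from 4.05 to 4.12. Bcl11b went from 6.54 to 5.67, Cd2 from 5.49 to 4.24, Cd3d from 5.68 to 5.57, Cd3g from 5.11 to 5.06 and Cd5 from 4.56 to 4.52. Rag1 (2.71) and Cd3g (5.06) averaged less in polyI:C-matured than in thymus CCR7+ cells (9.12 and 8.85). The NK cell receptor Ncr1 averaged between 3.53 and 3.81 in all groups, below the filter value. Other NK cell markers were brighter. Klrd1 averaged from 7.01 in thymus CCR7+ to 9.63 in spleen CCR7- cells, with 8.04 after polyI:C. Gzma had its highest group mean after polyI:C (5.57, next 4.89 in thymus CCR7+ cells), as did Eomes. Klre1 was highest in thymus CCR7- cells, and Prf1 averaged between 4.84 and 5.04 in all groups. Of 7 NK cell markers 6 had a probe set, and their sums ran from 611 to 792 and 244 to 283 in thymus, 663 to 1473 and 210 to 1093 in untreated spleen, and 232 to 1325 after polyI:C. The part of these cells in the Stat4 signal of thymus CCR7+ and polyI:C-matured cells was not tested.

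Other cells that can express Ebi3 or Il12b were read in the same way. B cell markers (5 of 6 with a probe set) summed to between 242 and 318 and 330 and 1581 in thymus CCR7- and CCR7+ arrays, 697 and 751 and 1325 and 4275 in untreated spleen, and 751 and 1199 after polyI:C. They were highest in untreated spleen CCR7+ cells, where Ebi3 was lowest among the CCR7+ groups and Il12b was high. Macrophage markers (7 of 7) summed to between 199 and 223, 243 and 408, 254 and 489, 254 and 462, and 206 and 515 in the 5 groups. CD172a+ DC markers (5 of 6) gave 249 to 321, 157 to 176, 185 to 308, 168 to 292 and 179 to 273. The range of thymus CCR7+ cells was the lowest and overlapped that of spleen CCR7+ cells. Plasmacytoid DC markers (6 of 6) gave 2964 to 3320, 2862 to 4046, 1658 to 1952, 1116 to 2516 and 3633 to 5004. Bst2, which encodes CD317 and is induced by interferon, averaged 11.93 after polyI:C, whereas Ccr9 (6.77), Tcf4 (6.74) and Pacsin1 (6.17) had their lowest group means there. Pacsin1 was close behind in thymus CCR7+ cells (6.19). Ly6d (6.48) and Siglech (6.08) were not lowest after polyI:C. Ly6d averaged 5.75 in spleen CCR7- cells, and Siglech averaged 5.845 in thymus CCR7+ cells. Thymic epithelium markers (6 of 6) gave 1490 to 1670, 531 to 665, 197 to 235, 207 to 314 and 186 to 211. Epcam, the brightest of them in thymus, averaged 10.44 in CCR7- and 8.17 in CCR7+ cells there, and Foxn1 4.77 and 4.66. Krt8 (5.80 and 7.24), Krt5 (5.48 and 5.82), Aire (5.10 and 5.45) and Psmb11 (3.93 and 4.20) averaged higher in thymus CCR7+ than in CCR7- cells. The part of B cells, macrophages, other DCs and thymic epithelium in the signals was not tested.

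The comparisons share arrays (spleen CCR7- cells serve 2 maturation contrasts), so their counts are not independent. Counted together, 3 of the 3 tested members rose in thymus CCR7+ cells, where 37.3% of all tested genes were called, 16.8% higher and 20.4% lower. In untreated spleen the same 3 rose, with 36.5% of genes called, 12.3% higher and 24.1% lower. In polyI:C-matured against immature cells 2 rose (46.4% of genes called, 18.4% higher and 28.0% lower). Against homeostatically matured cells 2 rose and 1 fell (18.2% called, 8.58% higher and 9.66% lower). Between the CCR7- groups 1 of 3 was called (8.16% of genes), between the untreated CCR7+ groups 2 (12.2%), and between thymus CCR7+ and polyI:C-matured cells 2 (24.1%). For the difference between the tissues' changes 1 was called (3.18%). The median change of the 3 tested members was 2.47 in thymus, 2.38 in untreated spleen, and 1.66 and 1.07 for polyI:C-matured cells against immature and homeostatically matured cells, beside medians of -0.06, -0.03, 0.02 and 0.01 over all tested genes. Stat4 entered the test through the groups where it is high, so these counts describe the members and support nothing further.

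**Figure D3:**
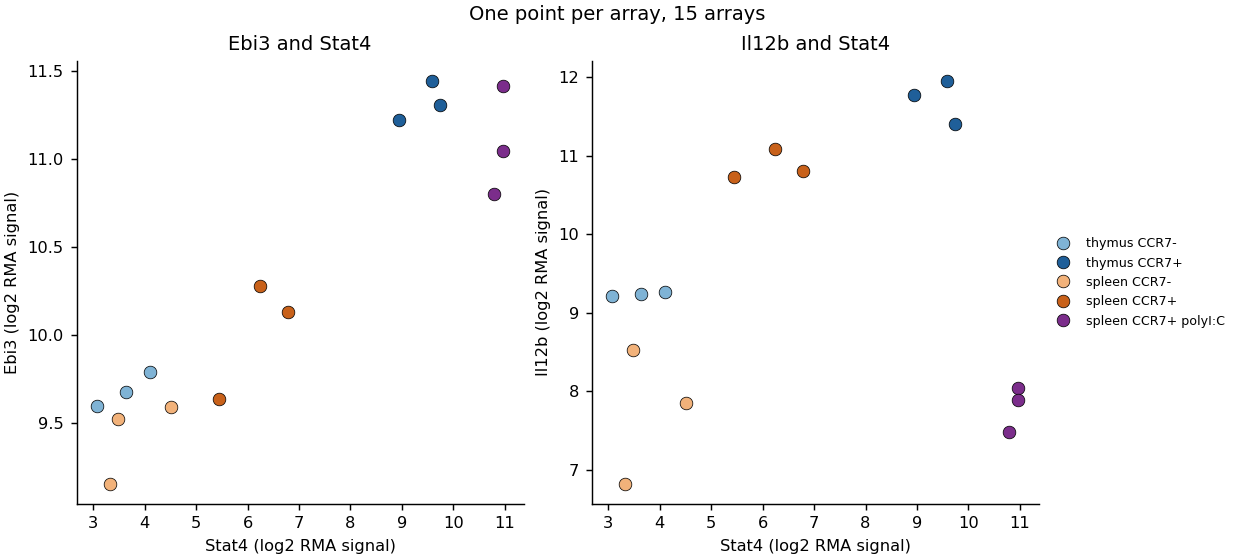
Signal of Ebi3 (left) and Il12b (right) against Stat4, all in log2 RMA units, with 1 point per array coloured by group. Ebi3 rises with Stat4 over the 15 arrays, whereas the 3 polyI:C arrays combine the highest Stat4 with low Il12b.

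Over the 15 arrays Ebi3 and Stat4 had Pearson's r = 0.94 and Spearman's rho = 0.86, as a description of 5 groups measured on the same arrays. Taken as deviations from the group means, r was 0.65. Il12b and Stat4 had r = 0.17 and rho = 0.16, and Il12b and Ebi3 r = 0.38 and rho = 0.50. Il12b with Il12a gave r = 0.17 and with Il23a 0.54, where both partners are near background.

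The genes whose pattern was most like each member were taken by Pearson's r over the 15 arrays among tested genes. For Il12b these were Sema6d, a transmembrane semaphorin (r = 0.96), Prph, the neuronal intermediate filament peripherin (r = 0.95), and Tm4sf5, a tetraspan membrane protein (r = 0.93), and 10 genes had an r above 0.9. The mean of Sema6d went from 8.70 to 11.82 between the thymus fractions and from 6.49 to 11.07 between those of untreated spleen, with 7.81 in polyI:C-matured cells. For Ebi3 they were Plekhg2, a guanine nucleotide exchange factor (r = 0.96), Mrpl45, a mitochondrial ribosomal protein (r = 0.96), and Tmem35b (r = 0.96). For Stat4 they were Rab26, a small GTPase of vesicle traffic (r = 0.98), Osm, a cytokine of the IL-6 family (r = 0.98), and Il18bp, a secreted inhibitor of IL-18 (r = 0.98). Genes with an r above 0.9 numbered 107 for Ebi3 and 245 for Stat4. The mean of Osm went from 5.49 to 7.82 with maturation in thymus and from 5.29 to 6.63 in spleen, with 8.40 in polyI:C-matured cells. That of Il18bp went from 5.53 to 8.05, from 5.38 to 6.77, and stood at 9.11.

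**Figure D4:**
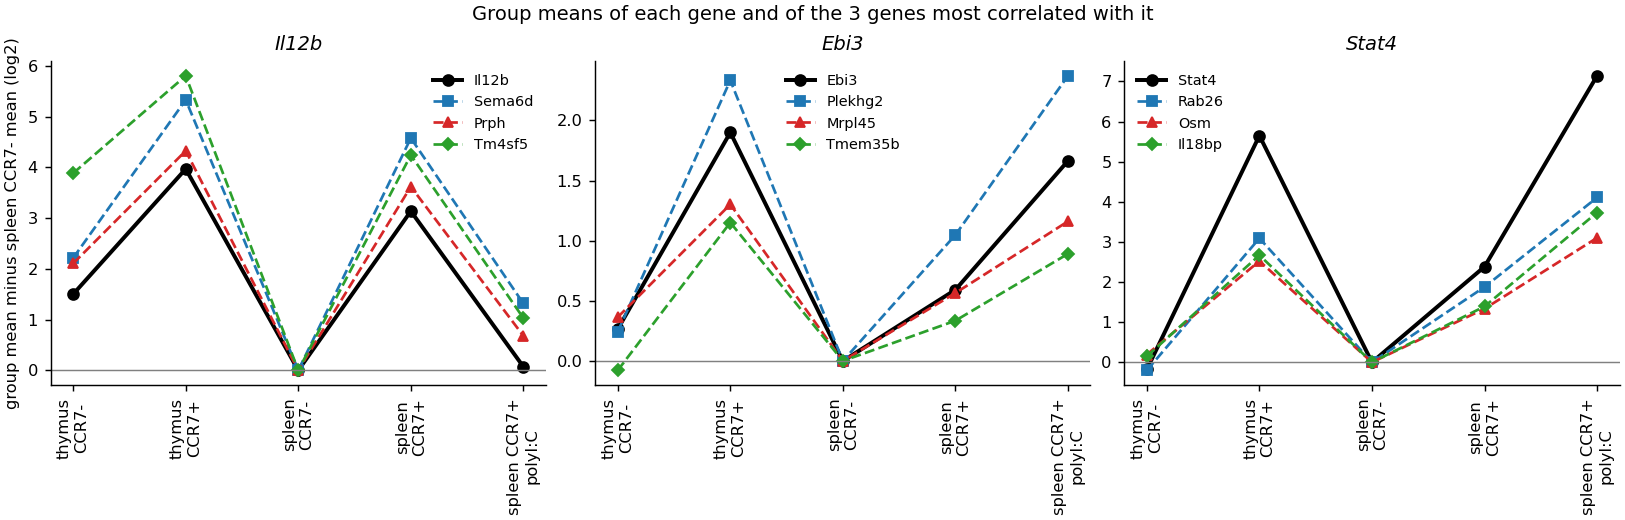
Group means (log2) of Il12b, Ebi3 and Stat4 and of the 3 genes most correlated with each over 15 arrays, as differences from the spleen CCR7- mean (vertical axis) in the 5 groups (horizontal axis). The genes were chosen for this likeness; those near Il12b lie closer to the spleen CCR7- level in polyI:C-matured than in the untreated CCR7+ cells, and those near Stat4 are highest there.

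Of 5 listed receptor chains of the family 3 were tested. Il23r had no probe set with its symbol alone, and Il12rb1 reached at most 4.65 in any array. Il27ra, the ligand-specific chain of the IL-27 receptor, rose by 0.40 in thymus (limma adjusted p = 0.0206) and by 0.49 in untreated spleen (limma adjusted p = 0.00625). Its signal was low, with group means from 4.86 to 5.51. Il12rb2, also tested, had group means from 4.02 to 4.36, below the filter value, and was not called in any of the 4 comparisons counted below. Il6st, the gp130 chain that IL-27 shares with IL-6, fell by 1.26 in untreated spleen (limma adjusted p = 0.00271) and by 1.06 in polyI:C-matured against immature cells (limma adjusted p = 0.00592). Between the CCR7- groups Il6st differed by -1.76 (thymus minus spleen, limma adjusted p = 0.000881), and its change was 1.65 more positive in thymus than in spleen (limma adjusted p = 0.0359). In all, 1 of the 3 rose in thymus, 1 rose and 1 fell in untreated spleen, and 1 fell in polyI:C-matured against immature cells. Against homeostatically matured cells limma called 0, and 1 had an unadjusted p under 0.05 (Il27ra, -0.34). Of all tested genes 37.3%, 36.5%, 46.4% and 18.2% were called in these 4 comparisons. The list's median change was 0.39, 0.12, 0.15 and 0.15 (log2), beside -0.06, -0.03, 0.02 and 0.01 over all genes.

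Of 10 kinases and STAT relatives of Stat4, 9 were tested. In thymus 6 rose and 1 fell, in untreated spleen 3 rose, in polyI:C-matured against immature cells 4 rose and 1 fell, and against homeostatically matured cells 1 rose and 1 fell. The shares of all tested genes that rose and fell were 16.8% and 20.4% for thymus, 12.3% and 24.1% for spleen, 18.4% and 28.0% against immature cells, and 8.58% and 9.66% against homeostatically matured cells. Tyk2, a kinase of the IL-12 and type I interferon receptors, rose by 1.02 in thymus, 0.92 in untreated spleen and 0.64 in polyI:C-matured against immature cells. Stat3, which IL-23 and IL-27 activate, rose by 1.56 in thymus and by 1.05 in polyI:C-matured against immature cells. Stat6, which IL-4 activates, rose by 0.98 in thymus, 0.86 in untreated spleen and 0.99 in polyI:C-matured against immature cells. Stat2, a subunit of the interferon-activated complex ISGF3, fell by 1.39 in thymus, differed by -0.095 in untreated spleen (95% interval -0.66 to 0.47) and rose by 2.32 in polyI:C-matured cells against immature and by 2.41 against homeostatically matured cells (limma adjusted p = 2.57e-05). Jak1 fell by 1.04 and 1.06 in the same comparisons. The median change of this list was 0.79 in thymus, 0.30 in untreated spleen, 0.48 against immature and -0.09 against homeostatically matured cells, beside -0.06, -0.03, 0.02 and 0.01 over all genes.

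Of 16 transcription factors tied to IL-12 family genes 15 were tested. In thymus 9 rose and 1 fell, in untreated spleen 7 rose and 1 fell, in polyI:C-matured against immature cells 7 rose and 2 fell, and against homeostatically matured cells 1 rose and 1 fell. Among all tested genes 16.8% rose and 20.4% fell, 12.3% rose and 24.1% fell, 18.4% rose and 28.0% fell, and 8.58% rose and 9.66% fell, in the same order. Relb, an NF-kB subunit, rose by 3.21 in thymus, 3.08 in untreated spleen and 3.39 in polyI:C-matured against immature cells. Irf1, an interferon-induced activator, rose by 2.75, 1.86 and 2.18 in these comparisons. Irf4 rose by 3.23 in thymus, by 3.23 in polyI:C-matured against immature cells and, from homeostatically matured to polyI:C-matured cells, by 2.03 (limma adjusted p = 0.0172). Irf8, a factor that defines XCR1+ DCs and acts on Il12b, fell by 0.71 in thymus, 1.06 in untreated spleen and 1.34 in polyI:C-matured against immature cells. Batf3, a partner of IRF8 in these cells, rose by 0.93 in thymus and 0.81 in untreated spleen, and was the 1 gene that fell from homeostatically matured to polyI:C-matured cells, by 0.76 (limma adjusted p = 0.015). Cebpb, which encodes a C/EBP factor, differed by -0.71 in thymus, -0.38 in untreated spleen and -0.81 in polyI:C-matured against immature cells. None of these was called (lowest limma adjusted p = 0.0511). The medians of this list were 1.20, 0.81, 0.41 and 0.25 in the 4 comparisons, beside -0.06, -0.03, 0.02 and 0.01 over all genes.

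Of 13 receptors and adaptors that can induce IL-12, 12 were tested. In thymus 3 rose and 3 fell, in untreated spleen 5 rose and 3 fell, in polyI:C-matured against immature cells 6 rose and 3 fell, and against homeostatically matured cells 2 rose and 1 fell. The background was again 16.8% higher and 20.4% lower, 12.3% and 24.1%, 18.4% and 28.0%, and 8.58% and 9.66% of all tested genes. Cd40, through which T cells induce IL-12 in DCs, rose by 1.47 in thymus, 2.40 in untreated spleen and 2.34 in polyI:C-matured against immature cells. Traf6, an adaptor of CD40 and Toll-like receptors, rose by 1.55, 1.35 and 1.90 in these comparisons. Tlr3, the endosomal sensor of polyI:C, fell by 5.70, 3.14 and 4.22. Ifngr1, a chain of the interferon gamma receptor, fell by 1.89, 1.88 and 2.99, and Ifih1, which encodes the cytosolic sensor MDA5, rose by 0.73 in untreated spleen, by 2.73 in polyI:C-matured against immature cells and by 2.01 against homeostatically matured cells. The medians of this list were -0.07, 0.20, 0.36 and 0.25, beside -0.06, -0.03, 0.02 and 0.01 over all genes.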

How the data were processed

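Total RNA of sorted cells was amplified and hybridised to 15 arrays. The authors deposited log2 RMA values, made with RMA and the affy package per the submitters' processing notes, versions not given in the sources used here. Array medians were 4.86 to 5.00. Probe sets were named from the platform annotation, where 34958 of 45101 carried 1 symbol, 932 several and 9211 none. Positions and promoter sequences are from RefSeq (GRCm38.p6).

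Group means were fitted to all 15 arrays with limma 3.58.1 in R 4.3.3 (lmFit, eBayes, 10 residual and 4.01 prior degrees of freedom), with Benjamini-Hochberg adjustment over the 13629 genes tested; a gene was called at an adjusted p under 0.05. The 3 arrays per group limit the precision of every value. The model was also run on simulated data with independent noise and, for each gene, the same spread in all groups. That run does not cover spreads that differ between groups or arrays that deviate together, and its outcome is not given here. Alternatives were other filters, probe sets, normalisations, weights and blocks, and each array left out.

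The members and the 4 pathway lists and 9 marker lists were chosen with earlier results of these data known. Besides the members, up to 2 rising and 2 falling list genes per comparison with non-overlapping groups could be named (not all are printed), and the 3 genes most correlated with each member. Cebpb was added because its motif was searched.

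Replicate numbers come from the titles. Same-numbered deviations correlated at 0.52 to 0.57 between the CCR7- groups of the tissues and at 0.42 to 0.59 between the untreated CCR7+ groups. They were treated as pairs there, a choice made after these values were seen. Between the fractions of a tissue they ran from -0.12 to 0.16 and were not. Over all 30 same-numbered pairs of arrays from different groups, polyI:C included, r ran from -0.397 to 0.635 (median 0.021). Over the 60 differently numbered pairs it ran from -0.553 to 0.485 (median -0.110). The labels do not say what the numbers mark. With the pairs within each untreated fraction as a replicate block 2146, 3501 and 1462 genes were called for the CCR7- groups, the CCR7+ groups and the difference of changes, against 1112, 1660 and 433 without it.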

Additional observations from a re-analysis of the deposited data

Results flagged for a closer look

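Stat4 changed differently in the tissues under the same contrast of CCR7+ against CCR7- cells. Its rise was 3.44 (log2) larger in thymus than in untreated spleen (limma adjusted p = 0.00186). Stat4 was at background in the CCR7- groups, above the filter value in 1 of their 6 arrays, and was tested through its CCR7+ arrays, so the size of this difference depends on where background lies. Between the untreated CCR7+ groups, where Stat4 was measured above the filter value in every array, it was 3.27 higher in thymus (limma adjusted p = 5.03e-05). For the difference of changes, leaving out single arrays gave 3.07 to 3.76 and the other settings 3.29 to 3.48. T cell and thymocyte marker sums were also higher in thymus CCR7+ cells, as given above, and their part in the difference was not tested.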

How the results depend on the processing

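The 3 tested members in 8 comparisons gave 24 values, 17 of them called. Over 29 alternatives 16 of the 17 kept their call and direction throughout, the exception being Ebi3 in untreated spleen. The number of members called for the difference between the tissues' changes was 1, and 2 (Ebi3 added) with averaged probe sets, array weights, the compared groups only, the replicate block, and the added replicate block within fractions. Leaving out single arrays gave 1 to 2. Blocking changed no other call of a member. Signs turned only in values that were not called. The Il12b difference of changes was 0.11 with the probe set of largest variance. Il12b in polyI:C-matured against immature cells was -0.16 with array weights and -0.38 to 0.47 when single arrays were left out. Stat4 between the CCR7- groups gave -0.42 to 0.19 when single arrays were left out. For partners, the thymus difference of Il12a and Il12b was -2.60 with mean probe sets and -2.82 with the most variable one, and that of Il23a and Il12b -2.57 and -2.80. Repeated quantile normalisation and median centring moved the median of all genes by at most 0.046 (log2). Signal near background limits Il12a, Il23a and immature Stat4. The cause of these changes was not tested.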
